A study of Ovis aries with 9 samples.

Results

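Liver gene expression at the intermediate dose of dietary succinate was set against the no-succinate and the high-dose groups combined. The contrast was the mean log2(FPKM + 1) of the 3 libraries at 1% succinate minus the average of the group means of the 3 control libraries and the 3 libraries at 2%. A gene far from 0 in it has a level at 1% away from the average of control and 2%. That can come from a difference to either group alone. It was computed for the 11944 of 21257 genes that reached 1 FPKM (fragments counted per kilobase of a gene, relative to library size) in at least 3 of the 9 libraries. The receptor gene SUCNR1, which responds to extracellular succinate, lay just outside that limit, with 1 FPKM or more in 2 libraries only.

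The animals were male Tan sheep, a Chinese breed, aged 5 months at the start. The trial held 30 sheep, penned in pairs with 5 stalls to a group. The control group received a basal diet, and the other groups the same diet with 1% or 2% succinate, for 60 days after a pretrial period of 10 days. Whole liver was taken at slaughter, so every library mixes hepatocytes with the other cells of the organ. Nothing in the labels ties a library to 1 animal or stall, so p-values reflect the spread of these libraries alone, part of which may be technical. The treatment label puts library 3 at 1% in that group, whereas a bracket in its title reads 2%. It stayed at 1% here, and values without it, or with it at 2%, are given where they matter.

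Succinate is an intermediate of the mitochondrial tricarboxylic acid cycle, in which succinate dehydrogenase converts it to fumarate. In ruminants the liver makes most of the animal's glucose, largely from propionate that enters the cycle through succinyl-CoA. The liver also secretes most plasma proteins through the endoplasmic reticulum (ER), degrades amino acids and clears their nitrogen as urea, and releases insulin-like growth factor 1 under growth hormone. A response that appears at an intermediate dose and not at the higher one is called non-monotonic, and a contrast of the middle group with both ends is the usual way to look for it. With equal group sizes this contrast is independent of the difference between 2% and control.

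The libraries were liver by their markers. The summed FPKM of 10 hepatocyte markers was 38717 to 70000.4 per library, against 0.371 to 3.62 for 7 skeletal muscle markers. Recovered reads were 13818648 to 18172528 per library. The 50 most abundant genes took 27.6% to 33.1% of the reads in controls, 32.3% to 39.4% at 1% and 33.6% to 35.3% at 2%. The median-ratio size factor of FPKM was lowest in 1% libraries 2 and 3 (0.912 and 0.918) and highest in control 1 (1.2). Over all tested genes, log2(FPKM + 1) of 1% library 1 had a Pearson correlation of 0.960 and 0.948 with 1% libraries 2 and 3. With libraries 1 to 3 at 2% it was 0.966, 0.972 and 0.965, and with controls 0.963, 0.960 and 0.967. This library was thus no closer to its own group than to the others. The median contrast over all tested genes was -0.11 on the log2 scale, and it became 0.01 after quantile scaling and 0.00 after median-ratio scaling. Values below are given as fitted on the deposited FPKM, and for gene lists also relative to that median.

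No gene passed in the contrast. With limma, 0 of 11944 genes (0%) had an adjusted p under 0.05, and the smallest adjusted p was 0.0647. With unadjusted p below 0.05, 208 genes (1.74%) lay higher at 1% and 1314 (11%) lower, against 597 expected by chance in both directions together. Quantile scaling turned this split into 656 higher (5.49%) and 633 lower (5.3%), and median-ratio scaling into 794 (6.65%) and 709 (5.94%). The contrast was above 0 in 32.9% of genes, in 51.1% after quantile scaling and in 49.4% after median-ratio scaling. The excess of lower genes in the deposited values was absent after either scaling. Without 1% library 3 the split was 92 and 576, and with that library placed at 2% it was 66 and 264, a total below that expected by chance. Without 1% library 1 it was 328 and 1865, and 4 genes passed.

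A further count asked for genes whose level at 1% differed from control and from 2% in the same direction, each at an unadjusted p under 0.05. There were 41 such genes with the highest level at 1% (0.343% of those tested) and 418 with the lowest (3.5%). Quantile scaling gave 157 and 184, and without 1% library 3 the counts were 25 and 174. All 3 libraries at 1% lay above the other 6 in 73 genes (0.611%) and below them in 617 (5.17%). Both component differences use the same 3 libraries at 1%, so their shared sign is in part built in. Against control alone 2 genes passed (0.0167%), with 2.11% of genes higher and 12.8% lower by unadjusted p under 0.05. Against 2% alone 0 passed, with 1.29% higher and 6.2% lower. The difference of 2% from control gave 6 genes passing (0.0502%), with 1.06% higher and 4.12% lower.

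The genes named next are those of smallest p whose 3 libraries at 1% all lay on the same side of the other 6, with a group mean of at least 5 FPKM. None passed the adjusted threshold, so their values are descriptions.

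**Figure D1:**
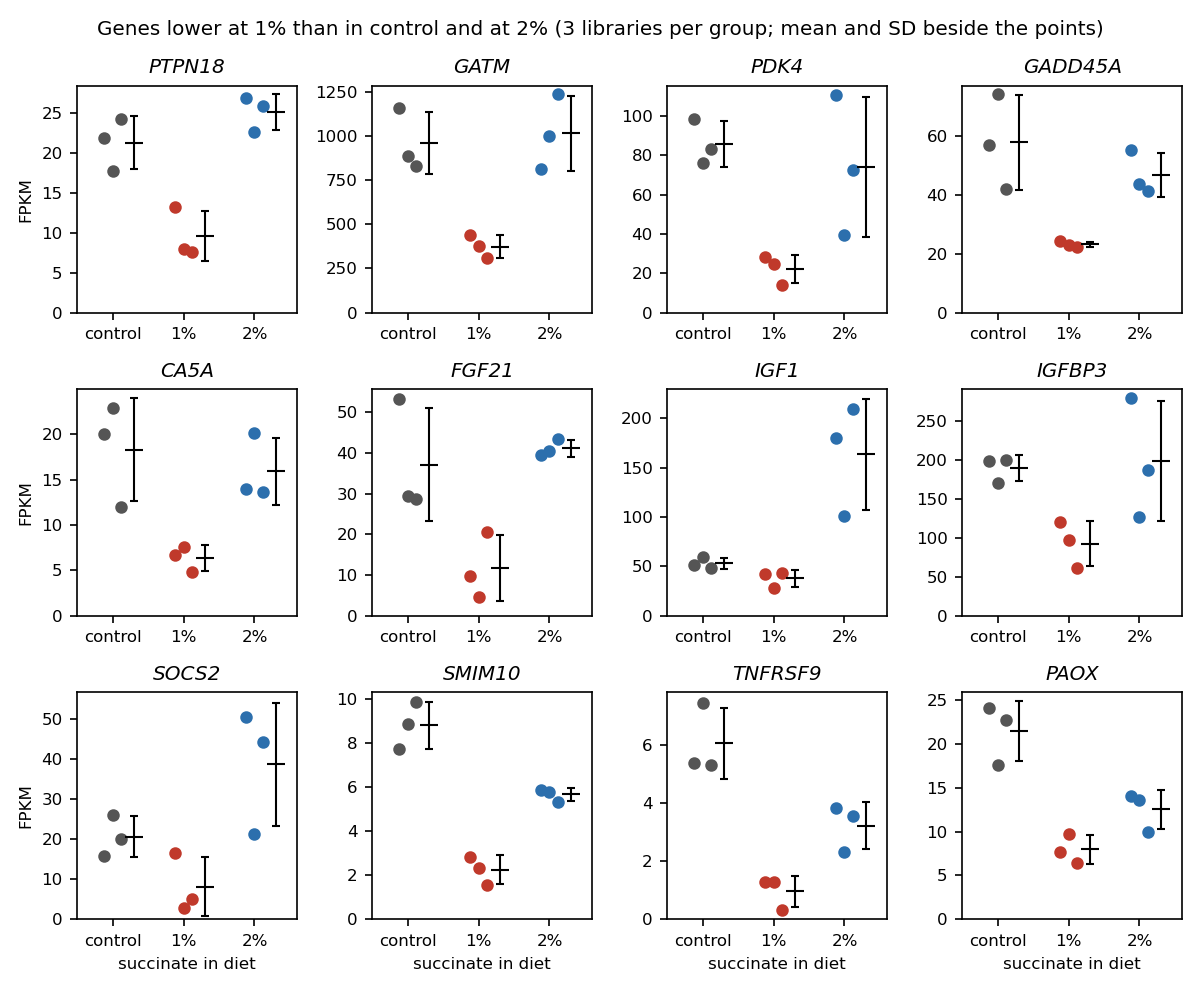
FPKM in each library (points, left to right libraries 1 to 3) for 12 genes with a lower mean at 1% than in control and at 2%, with the mean and SD (bars) of each group beside the points. All 3 libraries at 1% lie below the other 6 in every panel except SOCS2, which overlaps through 1% library 1, and only just below in IGF1, IGFBP3 and PAOX.

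SMIM10, a small integral membrane protein of little-known role, had the smallest p of all genes. Its FPKM was 7.72, 8.86 and 9.85 in controls, 2.84, 2.33 and 1.54 at 1%, and 5.88, 5.78 and 5.33 at 2%. Every library at 1% was thus well below the others, and 2% lay between 1% and control. The log2 difference in the contrast was -1.34 (SE 0.149, limma adjusted p = 0.0647). It passed without 1% library 1 (adjusted p = 0.0326), as did PTPN18 (0.0334).

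PTPN18, a protein tyrosine phosphatase, was closer to equal at both ends. Its FPKM was 21.9, 17.7 and 24.3 in controls, 13.2, 7.91 and 7.64 at 1%, and 26.9, 22.7 and 25.8 at 2%. The difference was -1.22 (SE 0.186, adjusted p = 0.159), made of -1.10 against control and -1.34 against 2%. The 1% libraries did not overlap with the others, which was a condition for naming this gene, while control and 2% overlapped each other.

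GATM, the mitochondrial amidinotransferase that makes guanidinoacetate, the precursor of creatine, was the most abundant gene of this set. Its FPKM was 1160.4, 888 and 831 in controls, 440.5, 375 and 307 at 1%, and 812, 999 and 1236 at 2%. Control and 2% overlapped fully, and the highest library at 1% was below the lowest of the others. The difference was -1.40 (SE 0.214, adjusted p = 0.159), with -1.36 against control and -1.43 against 2%.

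PDK4 encodes the kinase that switches off pyruvate dehydrogenase, and its transcript is known to be induced in fasting. Its FPKM was 98.6, 76 and 83 in controls, 28.1, 24.5 and 14 at 1%, and 110.4, 39.3 and 72.7 at 2%. The libraries at 2% spread widely, and the lowest of them was still above all at 1%. The difference was -1.79 (SE 0.317, adjusted p = 0.195).

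FGF21, a liver hormone of the fasting and amino acid responses, stood at 53.2, 29.5 and 28.6 FPKM in controls, 9.75, 4.74 and 20.6 at 1%, and 39.5, 40.4 and 43.5 at 2%. The groups at either end overlapped each other and not 1%. Its difference was -1.84 (SE 0.364, adjusted p = 0.239), with -1.74 against control and -1.94 against 2%. GADD45A, a growth arrest and DNA damage gene, was at 24.2, 23 and 22.5 FPKM at 1%, the narrowest spread of the 3 groups. It ran from 42 to 74.4 in controls and from 41.2 to 55.3 at 2%, and its difference was -1.11 (SE 0.189).

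CA5A, the mitochondrial carbonic anhydrase that supplies bicarbonate to urea synthesis and pyruvate carboxylation, was at 6.76, 7.55 and 4.82 FPKM at 1%. Controls had 20.1, 22.9 and 12 and libraries at 2% had 14, 20.1 and 13.6, so both ends were about equal. The difference was -1.28 (SE 0.226, adjusted p = 0.195). PAOX, a peroxisomal polyamine oxidase, stood at 7.66, 9.78 and 6.45 FPKM at 1%, and its lowest value at 2% was 9.96, so it was separated from 2% by little. Its component differences were -1.34 against control and -0.60 against 2%.

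TNFRSF9, a costimulatory receptor of activated lymphocytes, was at 1.28, 1.26 and 0.327 FPKM at 1%, with 5.32 to 7.45 in controls and 2.3 to 3.81 at 2%. Its difference was -1.51 (SE 0.213, adjusted p = 0.135). Markers of T and NK cells were followed beside it. Of 10 tested, 9 were below 0 in the contrast (67.1% of all genes were), with a median of -0.34 (-0.23 against the median gene), and 2 had an unadjusted p under 0.05, CD8A (-0.54) and CD3D (-0.48), against 11% of all genes. None passed. The summed FPKM of the 11 markers in the table was 37.8 to 55.8 in controls, 22.6 to 33.1 at 1% and 30 to 41.5 at 2%, and none of CD3D, CD3E and CD8A was at 0. In bulk tissue, fewer cells of a type and less RNA per cell cannot be told apart. The part of these cells in the TNFRSF9 value was not tested.

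The other lower genes chosen by the rule were less abundant. They were P4HA3, a collagen prolyl hydroxylase subunit (-0.86, SE 0.136), the scaffold SH3RF2 (-1.09, SE 0.175), the phosphatase CPPED1 (-1.05, SE 0.177) and TNRC6A, a scaffold of microRNA silencing (-0.62, SE 0.114). Their group means at 1% were 1.92 to 3.84 FPKM, and their adjusted p was 0.168 to 0.208.

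**Figure D2:**
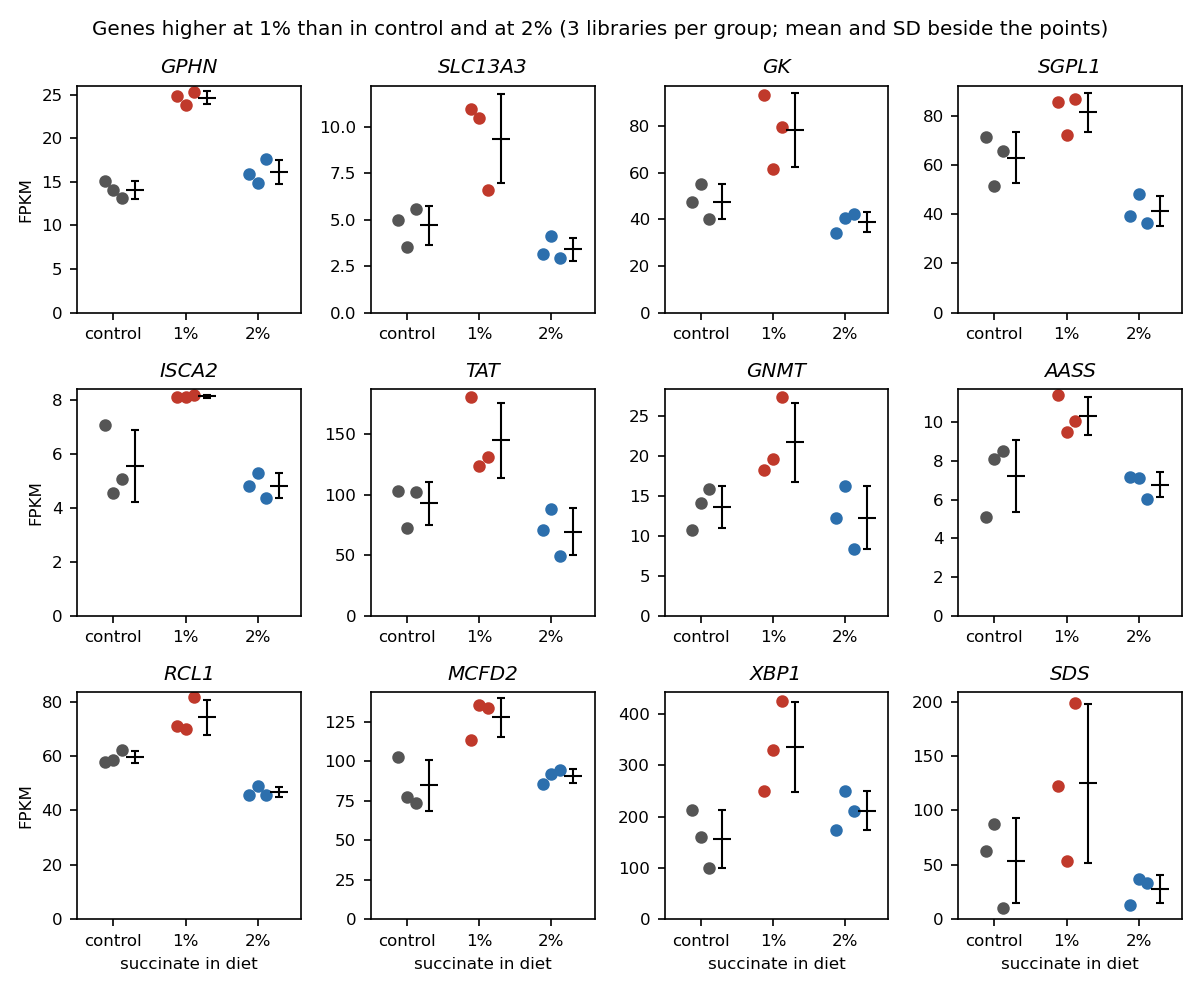
FPKM in each library (points, left to right libraries 1 to 3) for 12 genes with a higher mean at 1% than in control and at 2%, with the mean and SD (bars) of each group beside the points. GPHN and ISCA2 have the tightest groups at 1%, while SDS and XBP1 overlap with the other groups.

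On the higher side GPHN had the smallest p. It encodes gephyrin, which completes the molybdenum cofactor in liver and anchors receptors at synapses. Its FPKM was 15.1, 14 and 13.1 in controls, 24.8, 23.8 and 25.2 at 1%, and 15.9, 14.8 and 17.6 at 2%. The 1% libraries lay within a narrow band above all others. The difference was 0.68 (SE 0.119, adjusted p = 0.195).

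SLC13A3 encodes the sodium-coupled dicarboxylate transporter NaDC3, for which succinate is a substrate, and it bears most directly on the diet. Its FPKM was 4.99, 3.55 and 5.58 in controls, 11, 10.5 and 6.61 at 1%, and 3.18, 4.1 and 2.92 at 2%. The 1% libraries were above all others, with library 3, the one of conflicting labels, nearest to them. The difference was 1.03 (SE 0.188, adjusted p = 0.201), with 0.85 against control and 1.22 against 2%.

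GK, glycerol kinase, which brings glycerol into glucose and lipid synthesis, stood at 93.4, 61.7 and 79.7 FPKM at 1%, against 40.1 to 55.2 in controls and 33.9 to 42.4 at 2% (difference 0.84, SE 0.176). SGPL1, the lyase that degrades phosphorylated sphingosine, was at 85.5, 72.4 and 86.7 at 1%, just above the highest control of 71.5, while 2% ran from 36.5 to 48.1. Its difference of 0.67 was made mostly of that against 2% (0.97, with 0.38 against control). ISCA2, an assembly factor of mitochondrial iron-sulphur clusters, was at 8.09, 8.11 and 8.19 FPKM at 1%, against 4.54 to 7.07 in controls and 4.38 to 5.28 at 2% (0.57, SE 0.139).

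FAM81A, whose role in liver is not established, had the largest difference among these genes, 2.09 (SE 0.563), with 28.2, 33.3 and 48.7 FPKM at 1%. Its levels scattered in the other groups, from 3.79 to 13.4 in controls and from 2.09 to 22.7 at 2%. TBATA had a difference of 1.22 (SE 0.319), PID1, a regulator of insulin signalling in fat cells, one of 0.92 (SE 0.244), and PLSCR4, a phospholipid scramblase, one of 0.59 (SE 0.152). RCL1, a factor of ribosomal RNA processing, had 0.48 (SE 0.127) and ACMSD, which steers tryptophan breakdown away from NAD synthesis, 0.70 (SE 0.19). The adjusted p of the 12 higher genes ran from 0.195 to 0.286.

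**Figure D3:**
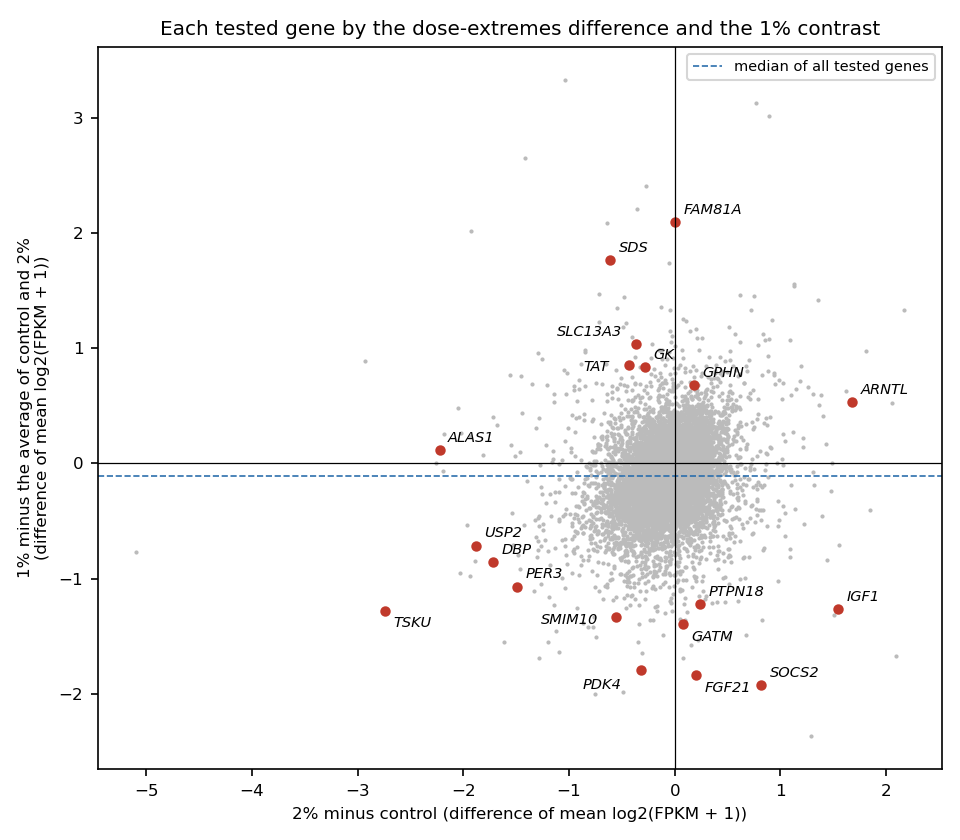
Each of the 11944 tested genes by the difference between 2% and control (horizontal axis) and by the contrast of 1% with the average of both (vertical axis), both as differences of mean log2(FPKM + 1). Some genes named in the text, and the heme synthesis gene ALAS1, are in red, and the median contrast of -0.11 is dashed. GATM, FGF21, PTPN18 and FAM81A lie near 0 on the horizontal axis, while the clock genes USP2, DBP, PER3 and TSKU lie far to its left and IGF1 to its right.

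A contrast below or above 0 does not by itself place 1% outside both neighbours. Of the 1522 genes at an unadjusted p under 0.05, the group mean at 1% was beyond both other means in 1511 and between them in 11. The latter were ARNTL, CIART, DBP, NR1D2, TSKU, USP2, SREBF1, MTRR, MYCL, LRFN4 and NCR3. In all of them but LRFN4 the mean at 1% was nearer to 2% than to control.

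The clock genes showed this pattern most plainly. The daily clock is a feedback loop in which ARNTL and CLOCK activate transcription and PER, CRY and NR1D proteins repress it, and DBP, TSKU and USP2 follow its output in rodents. The list of clock repressors and outputs left out the repressor CRY1 (contrast 0.41), which was counted with the activators. Of its 13 tested members, 13 were below 0 in the contrast (67.1% of all genes were), with a median of -0.54 (-0.43 relative to all genes). Of these, 7 had an unadjusted p under 0.05 (11% of all genes did in that direction). Their median was -1.20 against control and 0.05 against 2%. USP2 was at 4.66, 3.39 and 4.21 FPKM in controls, 0.585, 0.373 and 0.912 at 1%, and 0.469, 0.236 and 0.433 at 2%. Its contrast of -0.71 therefore came with a difference of -1.65 against control and of 0.23 against 2%, and 1% was not its lowest group. TSKU, a secreted protein of the liver, had 35 to 59.1 FPKM in controls, 3.95 to 10.2 at 1% and 3.31 to 11 at 2%. BHLHE40, a repressor that feeds back on the clock, was the member with 1% beyond both groups, at 31.5, 34.2 and 49.3 FPKM against 61.9 to 69 in controls and 48.6 to 66.3 at 2% (-0.66, SE 0.179). PER3 had -1.07 (SE 0.259), with -1.81 against control and -0.32 against 2%. Of 7 clock activators and partners 5 were above 0 (median 0.18, and 0.06 without control 3). Those of smallest p, ARNTL (0.53) and CRY1 (0.41), had higher means at 2% than at 1%, and their contrasts were 0.32 and 0.22 without 1% library 1.

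Genes of the growth hormone and insulin-like growth factor axis included several with large differences. Growth hormone acts on the liver through STAT5, which drives IGF1, the carriers IGFBP3 and IGFALS, and the feedback inhibitor SOCS2. Of 16 tested members 12 were below 0 in the contrast (67.1% of all genes were) with a median of -0.23, or -0.13 against the median gene and -0.13 without 1% library 3. Of the 12, 5 had an unadjusted p under 0.05 (11% of all genes did in that direction), and 0 passed.

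IGF1 was at 51.8, 59.1 and 48.6 FPKM in controls, 42.3, 28.4 and 43.5 at 1%, and 180.4, 101 and 209.5 at 2%. The contrast of -1.26 (SE 0.244, limma adjusted p = 0.218) rested on the high levels at 2%, with -2.04 against 2% and -0.49 against control. IGFBP3, the main carrier of IGF1 in blood, was at 120.0, 96.9 and 61.8 FPKM at 1%, against 171 to 201 in controls and 127 to 280.2 at 2%. It was nearly equal at both ends, and its contrast was -1.07 (SE 0.275). SOCS2 was at 15.7, 26 and 20 FPKM in controls, 16.5, 2.8 and 5.14 at 1%, and 50.5, 21.4 and 44.2 at 2% (-1.92, SE 0.446), with 1% library 1 inside the control range. IGFALS was at 40.9, 19.2 and 8.64 FPKM at 1% and overlapped both groups (-1.22, SE 0.402). IGFBP3, IGFALS and SOCS2 were named after their values were seen. GHR, the growth hormone receptor, had -0.23 (SE 0.222) and STAT5B -0.17 (SE 0.133), both within 1 SE of the median of all genes.

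Amino acid catabolism was split by enzyme. Of 23 tested genes of the urea cycle and of amino acid breakdown, 14 were above 0 in the contrast and 9 below, of which 5 and 3 had an unadjusted p under 0.05 (1.74% and 11% of all genes) and 0 passed. Their median of 0.07 was -0.04 without 1% library 1. TAT, tyrosine aminotransferase, a classic glucocorticoid-responsive enzyme counted with gluconeogenesis here, was at 103, 72.6 and 102 FPKM in controls, 180.3, 123 and 131 at 1%, and 70.5, 88.1 and 49.5 at 2%. All libraries at 1% were above the other 6, and the contrast was 0.85 (SE 0.225, adjusted p = 0.283). GNMT, the methyltransferase that disposes of excess S-adenosylmethionine, was at 18.2, 19.6 and 27.4 FPKM at 1%, against 10.7 to 15.8 in controls and 8.33 to 16.2 at 2% (0.72, SE 0.22). AASS, which starts lysine breakdown, was at 11.4, 9.48 and 10.1 at 1% and at most 8.51 elsewhere (0.51, SE 0.162). CPS1, the entry enzyme of the urea cycle, also separated by a small margin, with at least 572 FPKM at 1% and at most 569 elsewhere (0.41, SE 0.2). CTH, of the transsulphuration pathway, had 0.83 (SE 0.299), ARG1, which releases urea, 0.65 (SE 0.268), and HAL, which starts histidine breakdown, 0.69 (SE 0.275).

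Other steps of the same cycle lay on the lower side. OTC, which makes citrulline, was at 137, 102 and 74.2 FPKM at 1%, against 140.5 to 257 in controls and 125 to 199 at 2%, overlapping with 2% (-0.78, SE 0.264). ASL, which cleaves argininosuccinate, was at 47.5, 21.8 and 28.1, against 48.3 to 91.2 in controls and 41.4 to 59.9 at 2% (-0.86, SE 0.273). The mitochondrial aspartate carrier SLC25A13 had -0.53 (SE 0.209). Apart from TAT, GNMT and AASS these members were named after their values were seen.

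In gluconeogenesis and glycogen turnover 5 of 19 tested genes were above 0 and 14 below, with a median of -0.27 (-0.17 relative to all genes, and -0.10 without 1% library 3). Unadjusted p was under 0.05 for 3 genes above 0 and 3 below (1.74% and 11% of all genes), and 0 passed. The 14 of 19 below 0 and the 3 of these at that p were near the shares over all genes, 67.1% and 11%. G6PC1, the phosphatase that releases free glucose, was at 52.2, 64.1 and 56.2 FPKM in controls, 50.2, 34.7 and 29.4 at 1%, and 79.4, 53.7 and 88.4 at 2%. All 1% libraries lay below the other 6, the first of them narrowly (-0.78, SE 0.214, adjusted p = 0.286). GBE1, the glycogen branching enzyme, separated in the same direction, at 20.5, 21.2 and 17 FPKM at 1% and at least 24.2 elsewhere (-0.42, SE 0.137). PPARGC1A, a coactivator of gluconeogenic genes, had -0.76 (SE 0.244). The higher members besides TAT handle amino acids: GOT1, the cytosolic aspartate aminotransferase (0.80, SE 0.271), and SDS, serine dehydratase (1.76, SE 0.654). SDS was at 122, 53.4 and 199 FPKM at 1%, against 10.5 to 87 in controls and 13.2 to 36.6 at 2%, so it overlapped with controls.

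For fuel oxidation, 24 of 28 tested genes of fatty acid oxidation were below 0, with a median of -0.29 (-0.18 relative to all genes). It was -0.17 without 1% library 3. Besides PDK4, CPT1B, an isoform of the enzyme that admits long-chain fatty acids to mitochondria, was at 3.86, 2.5 and 2.42 FPKM at 1%, against 5.51 to 7.93 in controls and 3.97 to 7.23 at 2% (-0.82, SE 0.196). SLC22A5, the carnitine transporter, had -0.56 (SE 0.208). Fatty acid synthesis had 14 of 19 genes below 0 (median -0.26, or -0.15 relative to all genes, and -0.13 without 1% library 3). That count was near the share over all genes, 67.1%. SCD5, a desaturase, was at 0.729, 0.437 and 0.572 FPKM at 1% and at least 0.888 elsewhere (-0.61, SE 0.171). SREBF1, the lipogenic regulator, had -0.29 (SE 0.127, and -0.18 without 1% library 3) and was about equal at 1% and 2%.

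Among genes that handle succinate itself, SLC13A3 was the member with 1% beyond both groups. SLC25A10, which carries dicarboxylates such as succinate and malate across the inner mitochondrial membrane, was at 41.6, 38.4 and 51.9 FPKM in controls, 29.2, 28.2 and 15.7 at 1%, and 36.5, 26.9 and 34.7 at 2%. It overlapped with 2% (-0.66, SE 0.217, adjusted p = 0.313), and the difference was -0.38 without 1% library 3. SDHA, the catalytic subunit of succinate dehydrogenase, had -0.23 (SE 0.171) and SDHB, its iron-sulphur subunit, -0.13 (SE 0.155), the latter -0.01 after median-ratio scaling. SUCNR1 had 0.353, 1.98 and 1.01 FPKM in controls, 0.773, 0.638 and 0.449 at 1%, and 0.611, 0.953 and 0.772 at 2%, with full overlap. Of 11 tested genes of succinate transport and dehydrogenase assembly, 7 were above 0 and 4 below (median 0.05, and -0.10 without 1% library 1). In the tricarboxylic acid cycle 10 of 24 were above 0 and 14 below, with a median of -0.07 that turned to 0.05 after median-ratio scaling. IDH1, the cytosolic isocitrate dehydrogenase, had the smallest p of them (-0.98, SE 0.325, and -0.57 without 1% library 3). Pyruvate carboxylase, PC, had -0.63 (SE 0.318, and -0.42 without control 2). Genes of the propionate route had a median of -0.10, with 3 of 11 above 0, which turned to 0.01 and 0.02 after quantile and median-ratio scaling. They included MMAB (-0.43, and -0.14 without 1% library 3) and ACSS1 (-0.28, and -0.15 without 1% library 3).

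**Figure D4:**
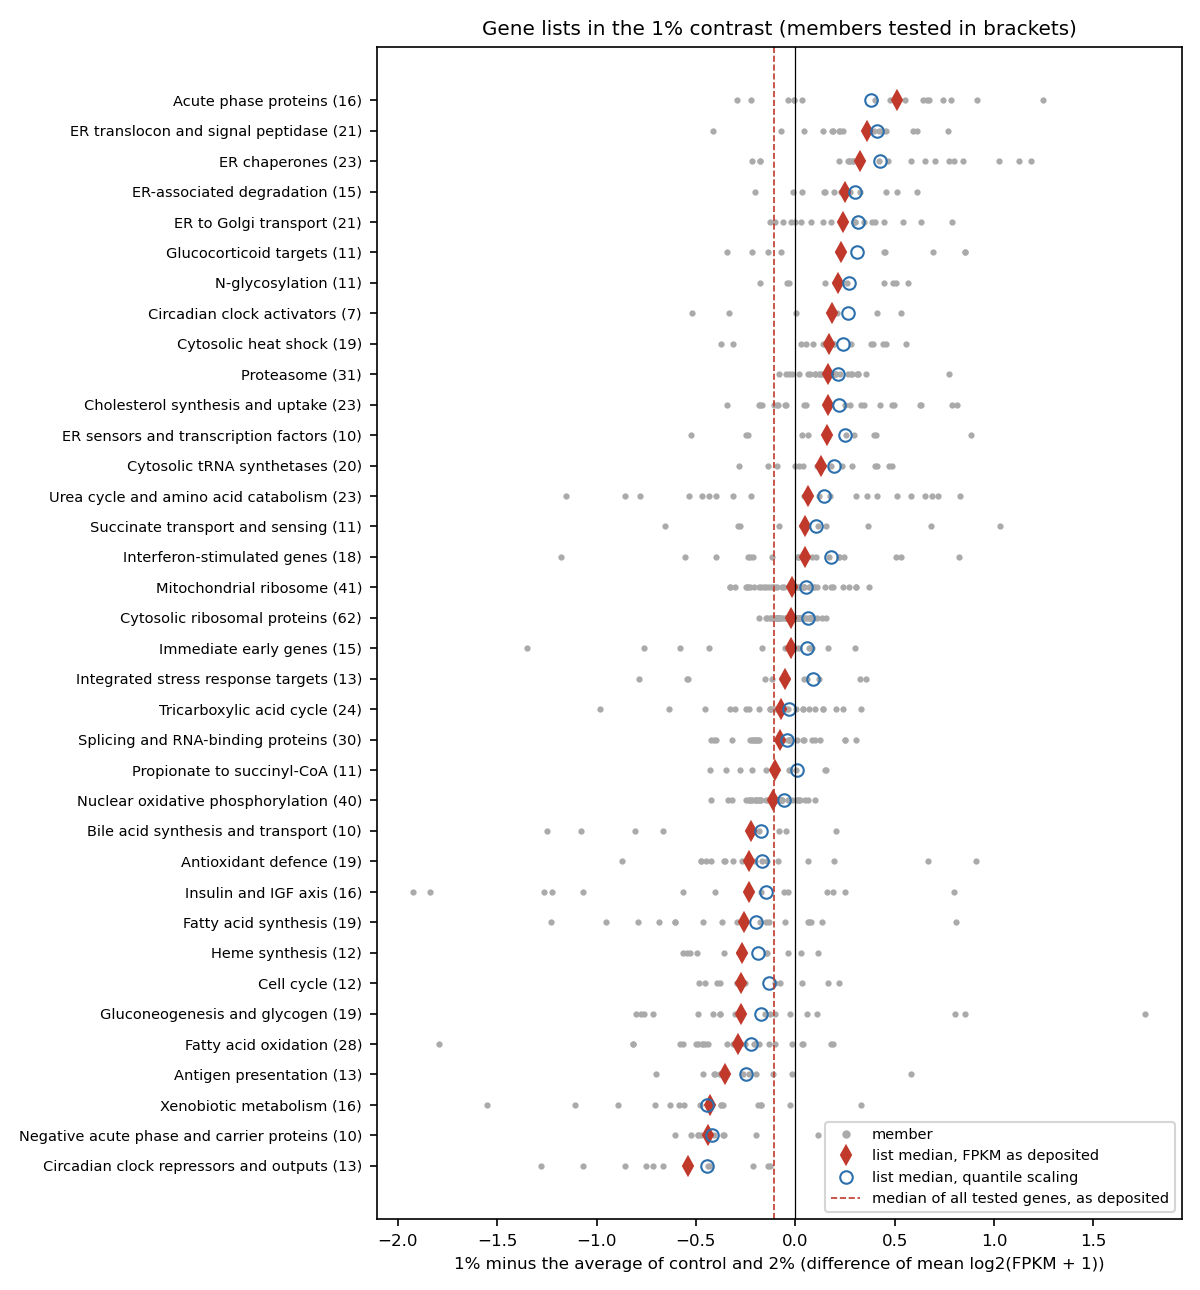
Contrast of 1% with the average of control and 2% for the members (grey) of 36 gene lists, with the list median on the deposited FPKM (red) and after quantile scaling (blue). The dashed line is the median of all tested genes, -0.11. Acute phase proteins lie highest and clock repressors lowest on the deposited FPKM, and lists near the dashed line move across 0 with the scaling.

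The secretory pathway was the broadest group on the higher side. Proteins bound for the blood enter the ER through the SEC61 translocon, are folded by chaperones and glycosylated, and leave in COPII vesicles, and the factors XBP1 and ATF6 raise the genes of these steps when folding is under strain. Over 5 lists covering these steps, 76 of 91 tested genes were above 0 in the contrast and 15 below (32.9% of all genes were above 0), with a median of 0.29. At an unadjusted p under 0.05 there were 8, all higher (1.74% of all genes were, and 5.49% and 6.65% after the scalings), and 0 passed. The group mean was highest at 1% in 68 of the 91. All 3 libraries at 1% lay above the other 6 in 2 of them, MCFD2 and LMAN1 (0.611% of all genes did).

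By step, 20 of 23 ER chaperones and oxidoreductases were above 0 (median 0.32, or 0.43 relative to all genes), as were 19 of 21 genes of the translocon and signal peptidase (0.36), 8 of 11 of N-glycosylation (0.22), 13 of 15 of ER-associated degradation (0.25) and 16 of 21 of ER to Golgi transport (0.24). Without 1% library 3 these medians were 0.23, 0.18, 0.14, 0.07 and 0.17, and with it at 2% that of ER-associated degradation was -0.02. Over the 9 alternatives that kept all libraries, the lowest medians of the lists were 0.15, 0.10, 0.12, -0.02 and 0.10. The ER sensors and transcription factors had 7 of 10 above 0 (median 0.16), which was 0.01 without 1% library 3 and -0.08 with it at 2%.

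**Figure D5:**
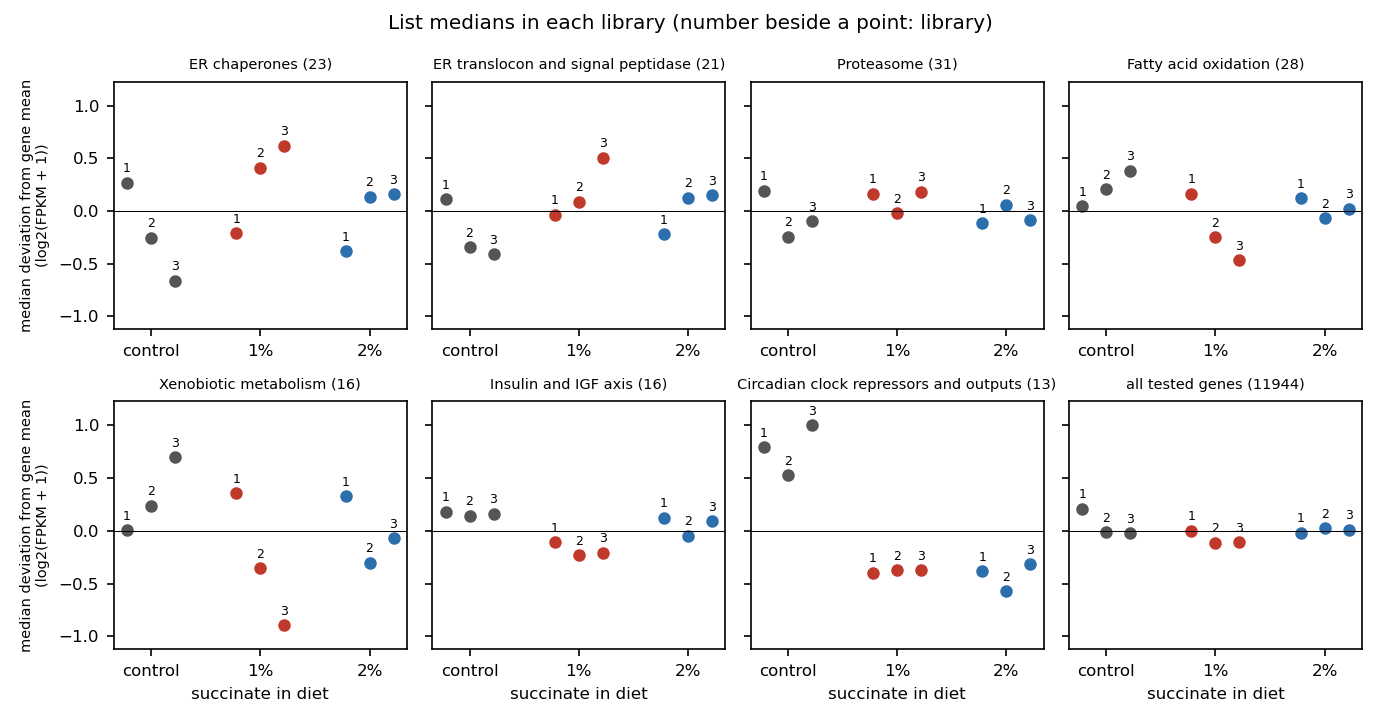
Median over the members of 7 lists, and over all tested genes, of log2(FPKM + 1) minus the gene's mean over the 9 libraries, in each library (numbered). For ER chaperones 1% libraries 2 and 3 are highest (0.41 and 0.62) while 1% library 1 (-0.21) is below control 1 (0.27). For xenobiotic metabolism 1% library 3 is lowest (-0.89), and for clock repressors and outputs both dosed groups lie below controls.

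The libraries at 1% differed among themselves in these lists. XBP1, a transcription factor activated by splicing of its own RNA under ER stress, was at 212, 160.0 and 99 FPKM in controls, 249.9, 331 and 426 at 1%, and 174, 250.1 and 212 at 2%. The lowest library at 1% was about level with the highest at 2%, and the contrast was 0.88 (SE 0.268, adjusted p = 0.306). HSPA5, the main ER chaperone BiP, was at 365, 154 and 94.3 FPKM in controls, 229.8, 393 and 694 at 1%, and 201, 312 and 349 at 2%. Control 1 was above 1% library 1, and the contrast of 0.84 (SE 0.45) was 0.44 without 1% library 3. MANF, a secreted ER stress protein, was at 58.9, 76.8 and 155 FPKM at 1%, with 71.5, 28.1 and 16.2 in controls (1.19, SE 0.467, and 0.79 without 1% library 3). MCFD2, which with LMAN1 forms the receptor that carries coagulation factors out of the ER, was the tightest. It stood at 114, 136 and 134 FPKM at 1%, against 73.7 to 103 in controls and 85.7 to 94.4 at 2% (0.54, SE 0.158, adjusted p = 0.298). LMAN1 had 68.9, 78.5 and 73 FPKM at 1% and at most 68.6 elsewhere (0.18, SE 0.131).

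Other members with the smallest p were SRP19 (0.77), of the signal recognition particle, and the translocon gene TRAM1 (0.61). So were the oligosaccharyltransferase subunits STT3A (0.57) and DDOST (0.49), and the degradation factors ERLEC1 (0.61) and EDEM1 (0.46). SRP19 differed by 1.18 from control and by 0.36 from 2%. SDF2L1, a BiP partner, had 0.65, and SAR1B, the GTPase of COPII coats, 0.30. CREB3L3, an ER-bound factor that drives acute phase and lipid genes, had a contrast below 0 (-0.53, SE 0.264, and -0.30 without 1% library 3). Its 1% library 2, at 373 FPKM, lay within the control range. Without 1% library 3 the contrasts of SRP19, STT3A, ERLEC1, EDEM1 and SDF2L1 were 0.46, 0.38, 0.32, 0.27 and 0.38. Targets of ATF4 in the integrated stress response had 5 of 13 above 0 (median -0.05, turning to 0.09 and 0.04 under the scalings), with DDIT4 at 0.36 and ALDH18A1 at -0.79 (-0.19 without 1% library 1).

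Acute phase proteins, which hepatocytes secrete in inflammation, had 11 of 16 members above 0 and a median of 0.51, the highest of the lists on the deposited FPKM. It was 0.33 without 1% library 2. After quantile scaling it was 0.38, below ER chaperones (0.43) and the translocon list (0.41). No tested member had an unadjusted p under 0.05. The list held 20 genes, and HP (haptoglobin), SAA3 and SERPINA3 matched no deposited gene name, so its median does not cover them. FGA, a fibrinogen chain, was at 4843, 7222 and 3962 FPKM in controls, 5519, 13184 and 11013 at 1%, and 5611, 7383 and 7035 at 2%. Libraries 2 and 3 at 1% were the highest of the 9, whereas 1% library 1 was below every library at 2%. The contrast was 0.67 (SE 0.325, adjusted p = 0.409) for FGA and 0.67 (SE 0.329) for FGG, and 0.11 and 0.30 after quantile scaling. Without 1% library 2 they were 0.41 and 0.43. Carrier proteins that fall in inflammation, such as albumin and transthyretin, had 9 of 10 members below 0 (median -0.44, and -0.19 without 1% library 2). APOA1, the main apolipoprotein of high-density lipoprotein, had -0.49 (SE 0.213), and TTPA, the vitamin E transfer protein, -0.47 (SE 0.23, and -0.29 without 1% library 3). ALB had -0.36 (SE 0.455), with 36439.5, 11749 and 25641 FPKM at 1%, and 0.10 without 1% library 2.

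Chaperones and protein turnover outside the ER showed the same direction with smaller values. Cytosolic and mitochondrial heat shock genes had 17 of 19 above 0 (median 0.17, and 0.08 without 1% library 3). The mitochondrial chaperonin HSPD1 was at 109, 139 and 156 FPKM at 1%, against 84.9 to 87.1 in controls and 94.7 to 122 at 2% (0.46, SE 0.163). HSP90AA1 had 0.44 (SE 0.223, and 0.29 without 1% library 3). Proteasome subunits had 27 of 31 above 0, and 31 of 31 were above the median of all genes (median 0.17). Leaving out any library kept this median between 0.13 and 0.23. PSMD6, a subunit of the regulatory cap, was at 110.2, 83.9 and 127 FPKM at 1%, against 45 to 103 in controls and 48.7 to 65.5 at 2% (0.77, SE 0.255). PSMD1 had 0.31 (SE 0.14) and did not overlap. Cytosolic tRNA synthetases had 16 of 20 above 0 (median 0.13, but 0.02 without 1% library 3), with FARSB (0.40) and VARS1 (0.47) of smallest p, at 0.20 and 0.31 without 1% library 3.

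Several functions of differentiated hepatocytes had list medians below 0. Genes of xenobiotic metabolism had 15 of 16 members below 0 (median -0.43), but the median was -0.08 without 1% library 3 and 0.09 with it at 2%. NR1I3, the nuclear receptor CAR, which induces drug-metabolising enzymes, was at 23.3, 29.6 and 42.9 FPKM in controls, 16.8, 10.1 and 3.54 at 1%, and 34, 15.8 and 25.8 at 2%. It overlapped with 2% through 1% library 1 (-1.55, SE 0.405, and -1.01 without 1% library 3). UGT1A1, which conjugates bilirubin, had -0.89 (SE 0.385, and -0.44 without 1% library 3). Bile acid genes had 9 of 10 below 0 (median -0.22, or -0.12 relative to all genes), led by BAAT, which conjugates bile acids (-1.25, and -0.60 without 1% library 3), and AMACR (-1.08, and -0.48). CYP7A1, CYP8B1, CYP27A1, CYP7B1 and ABCB4, of the same list, matched no deposited gene name.

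Antioxidant genes had 15 of 19 below 0, beside 67.1% of all genes (median -0.23, or -0.12 relative to all genes and -0.15 without control 1). NQO1, a quinone reductase under NRF2, was at 4.33, 4.04 and 2.15 FPKM at 1%, against 5.61 to 9.83 in controls and 6.02 to 7.14 at 2%, without overlap (-0.87, SE 0.206, adjusted p = 0.275). PRDX3, a mitochondrial peroxiredoxin, had -0.43 (SE 0.184, and -0.26 without 1% library 3). Heme genes had 10 of 12 below 0 (median -0.27, and -0.18 without 1% library 3), with ABCB10, a mitochondrial transporter of the inner membrane, at -0.53 and BLVRA, biliverdin reductase, at -0.54. Nuclear genes of oxidative phosphorylation had 33 of 40 below 0, but their median of -0.11 was that of all genes and became 0.01 after median-ratio scaling. NDUFS8 (-0.34) and ATP5PD (-0.32) had the smallest p of them. This list held 54 genes, and of its UQCR and COX members only UQCRH and COX5A matched a deposited gene name. Cytosolic ribosomal proteins (27 of 62 above 0, median -0.02) and mitochondrial ribosomal proteins (19 of 41, median -0.02) turned to 0.06 and 0.05 after quantile scaling. Among the members were RPS3A (-0.18, and -0.11 without control 3), MRPL39 (-0.33, and -0.16 without 1% library 3) and MRPL15 (0.31).

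Cholesterol synthesis and uptake had 14 of 23 above 0 (median 0.16), but the median was -0.20 without 1% library 1 and 0.35 without 1% library 3. HSD17B7 had 0.50 (SE 0.21), and 0.25 without 1% library 1. Glucocorticoid targets had 7 of 11 above 0 (median 0.23, and 0.02 with 1% library 3 at 2%), with TAT leading and KLF9 at -0.35 (-0.22 without 1% library 2).

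Immune genes were mixed. Antigen presentation had 12 of 13 below 0 (median -0.35, or -0.25 relative to all genes), with the immunoproteasome subunit PSMB9 at 10.6, 5.19 and 8.11 FPKM at 1%, 11.8 to 20.9 in controls and 9.58 to 12.7 at 2% (-0.70, SE 0.227). NLRC5, which activates class I genes, had -0.46 (SE 0.226). Without 1% library 2 these were -0.46 and -0.31. The T and NK cell markers given above lay in the same direction, and their part was not tested. Interferon-stimulated genes had 11 of 18 above 0 (median 0.05, and -0.16 without 1% library 2), with CXCL10 at -1.18 and IRF1 at -0.55. Immediate early genes, which mark rapid stimulation, had 7 of 15 above 0 (median -0.02, turning to 0.06 and 0.08 under the scalings). FOSL2 was at 5.13, 3.96 and 4.75 FPKM at 1% and at least 5.39 elsewhere (-0.58, SE 0.147), and EGR1 had -1.35 (SE 0.516, and -0.88 without 1% library 2). Cell cycle genes had 9 of 12 below 0, near the 67.1% of all genes (median -0.27, and -0.15 without 1% library 3). MCM5, a subunit of the replicative helicase, was at 1.65, 1.53 and 1.54 FPKM at 1%, against 1.92 to 2.59 in controls and 2.57 to 3.06 at 2% (-0.45, SE 0.119), and CCND1 had -0.48 (SE 0.199). Splicing and RNA-binding proteins had 21 of 30 below 0, also near that share. Their median of -0.08 turned to 0.05 after median-ratio scaling, with CLK4 (-0.43, and -0.26 without 1% library 2) and TRA2A (-0.40) of smallest p.

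Markers of other liver cells were followed beside these lists. In the contrast 7 of 8 Kupffer cell and macrophage markers were below 0 (median -0.13), 6 of 7 endothelial markers (-0.21), 5 of 6 cholangiocyte markers (-0.17) and 10 of 10 stellate cell and fibroblast markers (-0.37), with 67.1% of all genes below 0. Relative to all genes these medians were -0.02, -0.11, -0.06 and -0.27, and 4 of the 8 Kupffer cell and macrophage markers lay above the median gene. The Kupffer cell median was 0.06 without control 2, the endothelial one -0.09 without control 1, the cholangiocyte one 0.02 without 1% library 2 and the stellate one -0.23 without 1% library 3. The summed FPKM of the stellate cell and fibroblast markers was 115 to 132 in controls, 81.2 to 117 at 1% and 79.2 to 263 at 2%, so the groups overlapped. That of the cholangiocyte markers was 11.4 to 45.2 in controls, 21.2 to 137 at 1% and 15.3 to 39 at 2%. Its highest value was thus at 1%, although 5 of 6 markers lay below 0. The cholangiocyte median ran from -0.22 to 2.65 over the 9 alternatives that kept all libraries, and it moved beyond its spread in 1 of them. Stricter filters among these can leave fewer markers in the list, so 2.65 is not read as a rise of the 6. Of B and plasma cell markers 2 were tested (median -0.58), of neutrophil markers 4 (0.04), of erythroid markers 1 (0.53) and of muscle markers 1 (-0.46). Hepatocyte markers had 7 of 10 below 0 (median -0.37), and -0.09 without 1% library 2.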

How the data were processed

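The authors deposited 1 table of FPKM per gene. For its aligner, counter and annotation, nothing is given in the sources used here. GRCm38 and mm10, builds of the mouse genome, are the ones named by the submitters' processing notes, so no coordinates are printed. Of 21257 gene names, 20604 matched the sheep RefSeq table (ARS-UI_Ramb_v3.0), and 5117 were LOC identifiers. How reads shared by paralogs or antisense genes were counted is not given, so such genes are uncertain.

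All 9 libraries entered 1 fit of log2(FPKM + 1) with limma 3.58.1 in R 4.3.3 (empirical Bayes with an intensity trend), two-sided, with Benjamini-Hochberg adjustment over 11944 genes at 0.05. The pseudocount of 1 understates changes of low genes. Values were taken as whole multiples of 1 read, and a search for the multiplier gave reads for 17402 genes (100% within a tolerance of 0.01). These served for a check with voom. Genes above 0 in few libraries can meet this tolerance by chance, so the 100% does not show that their reads are correct. The lowest chi-square per degree of freedom between libraries was 37.2, so none was a copy. The fit was tested on simulated data drawn with the same spread setting for every gene. It therefore does not show how the fit performs at the spread of these libraries. Python 3.11.15, pandas 2.3.3, numpy 2.4.6 and matplotlib 3.10.9 were used.

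Named genes were up to 12 per direction by smallest p, without overlap and with a group mean of at least 5 FPKM, the 2 of smallest p of each of 36 lists, and XBP1, HSPA5, ALB, SDHA, SDHB, SUCNR1, SLC13A3 and SLC25A10. Some genes that this rule names are not reported here. Members and lists were chosen with earlier results of these data known. Lists were described by counts and medians, with no set test. Members that matched no deposited gene name were left out, and of the 22 on the xenobiotic list 16 were matched. Alternatives were a pseudocount of 0.1, other filters, 2 scalings, control and 2% as 1 group, library 3 at 1% placed at 2%, the library number as a block, voom, and leaving out each library.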

Additional observations from a re-analysis of the deposited data

How the results depend on the processing

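The count of genes passing in the contrast was 0 under each of the 9 alternatives that kept all libraries (voom, scalings, filters, pseudocount, control and 2% as 1 group, the relabelled library and the block). It was 0 to 4 when 1 library was left out, 4 only without 1% library 1. Of 1714 values of named genes under the alternatives, 1711 kept their direction and their side of the threshold, 2 passed (SMIM10 and PTPN18 without 1% library 1) and 1, ALB without 1% library 2, changed sign to 0.10, its range over left-out libraries being -0.72 to 0.10.

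At an unadjusted p under 0.05, the higher and lower counts of 208 and 1314 became 656 and 633 after quantile scaling, 794 and 709 after median-ratio scaling and 66 and 264 with library 3 at 1% placed at 2%. The lower count was 668 with a mean FPKM of at least 5, where 7101 genes were tested. Leaving out 1 library gave 92 to 530 higher and 576 to 1865 lower, with 530 higher without control 1. Genes with 1% beyond both groups, 41 and 418, became 157 and 184, 196 and 220, and 19 and 55 under the same 3 changes. The lower count was 214 at a mean FPKM of at least 5, and the higher count 66 with no filter on low values. Leaving out 1 library gave 24 to 120 and 174 to 839. The cause was not tested, apart from the change in the genes tested.

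Library numbers recur in each group but did not pair the libraries. Correlations of the deviations of same-numbered libraries ran from -0.30 to 0.28, and 2 of 9 libraries correlated best with their own number. With the replicate block, 0 genes passed, and the counts at an unadjusted p under 0.05 were 175 and 1205.

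Limits are the 3 libraries per group, the 1 library of conflicting labels, and FPKM, which is a share of each library and not an absolute level. Control and 2% are averaged in the contrast even where they differ.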

Other observations

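Further genes met the condition of a level at 1% beyond both groups, each difference at an unadjusted p under 0.05. They were named after their values were seen, and none passed the adjusted threshold. The condition was met by 41 genes on the higher side (0.343% of those tested) and 418 on the lower (3.5%), and those below are examples, not a count of any pathway. SLC2A1, the glucose transporter GLUT1, was at 2.9, 2.04 and 1.7 FPKM in controls, 6.39, 3.74 and 4.73 at 1%, and 2.21, 3.36 and 1.54 at 2% (contrast 0.86, SE 0.21). PFKFB4, an enzyme that adjusts glycolytic flux, was at 6.86, 9.07 and 12.8 FPKM at 1%, against 1.69 to 6.81 in controls and 1.14 to 4.29 at 2% (1.35, SE 0.368). All libraries at 1% lay above the other 6 for both genes. CCN2, a matrix-associated growth factor, was at 15.5, 17.5 and 25.6 FPKM at 1% and at most 14.8 elsewhere (0.98, SE 0.279).

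Examples on the lower side follow. AMT, of the glycine cleavage system, was at 16.2, 10.3 and 5.91 FPKM at 1%, against 20.8 to 23.8 in controls and 18 to 20.5 at 2% (-0.98, SE 0.242). PIPOX, the peroxisomal sarcosine oxidase, was at 43.1, 23 and 23.3 at 1% and at least 46.6 elsewhere (-0.99, SE 0.216). CHDH, choline dehydrogenase, was at 7.36, 9.85 and 5.2 at 1% and at least 10.5 elsewhere (-0.69, SE 0.182). All 3 had no overlap between 1% and the other libraries. IFT52 (-0.69), IFT80 (-0.50) and IFT122 (-0.60), of intraflagellar transport, had group means of 0.943 to 1.84 FPKM at 1%. Other genes of that process were not tallied, and 53.4% of all genes had their lowest mean at 1%. DNASE1L3, a secreted nuclease, was at 44.4, 41.4 and 45.8 FPKM at 1% and at least 64.9 elsewhere (-0.76, SE 0.148).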
